A study of Drosophila melanogaster with 2 samples.

Results

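CG14711 lies in a compact group of genes on chromosome arm 3R of Drosophila melanogaster, and the binding of its tagged protein to that group is described here. The group was taken as 7 named neighbouring genes: Jupiter, CG14710, Zaf1, CG14711, CG6813, CG18764 and CG14712. They are 7 of the 18164 annotated genes on the 6 chromosome arms used, of which 13945 are protein-coding. The choice rests on position around CG14711, but it was made with earlier results of these data known. Binding was measured by chromatin immunoprecipitation with sequencing (ChIP-seq) in whole adult female flies, age unknown, from a transgenic line stably carrying a CG14711-eGFP fusion, in which GFP is joined to the C terminus of CG14711. The immunoprecipitation used an antibody against GFP, and chromatin was sheared by sonication to 200 to 800 bp. There was 1 group with 2 samples, biological replicates 3 and 4, so no conditions could be compared and no test was made. Whole flies mix all tissues, so a peak does not say in which cells the protein was bound.

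ZAD zinc finger proteins carry an amino-terminal zinc-finger-associated domain, through which they pair with one another, and a row of C2H2 zinc fingers that contact DNA. They form one of the largest classes of zinc finger proteins in flies, and their genes often sit side by side after local duplication. ChIP-seq of a tagged member lists the places where that protein was crosslinked to chromatin, and a peak's summit is the position of highest enrichment within it.

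The 7 genes span 42821 bp, from 11590386 to 11633206 on 3R (dm6). From left to right, Jupiter (FBgn0051363, 11590386 to 11619906, minus strand) encodes a microtubule-associated protein and has 3 transcription start sites (TSSs). CG14710 (FBgn0037920, 11620090 to 11621728, plus strand) begins 183 bp beyond it. Zaf1 (FBgn0037921, 11621466 to 11625644, minus strand), which encodes a ZAD zinc finger protein, has 2 TSSs. CG14711 itself (FBgn0037922, 11623339 to 11624948, plus strand) lies wholly within the span of Zaf1 on the opposite strand. CG6813 (FBgn0037923, 11625051 to 11626638, minus strand) and CG18764 (FBgn0042205, 11626889 to 11628452, plus strand) are divergent and 250 bp apart. CG14712 (FBgn0037924, 11628759 to 11633206, plus strand), to which no role is given here, closes the group.

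Translation of the annotated coding sequences showed the family resemblance. CG14710, Zaf1, CG14711, CG6813 and CG18764 each held a cysteine spacing of the ZAD kind near the amino terminus. Their proteins have 415, 375, 377, 294 and 409 residues, with 5 C2H2 patterns in each of the first 4 and 6 in CG18764. Over the 10 pairs of these proteins, identity of aligned residues ran between 26.5% and 38.8%, highest for CG6813 with CG18764. CG14711 was closest to CG14710 (34.8%) and 29.8% identical to Zaf1, the gene with which it shares a promoter. CG14712, with 1266 residues, and Jupiter, with 208 in the product used, held neither pattern. Both patterns were found in 104 genes, 0.746% of protein-coding genes.

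The peak lists place 6 reproducible peaks in the group, and short sequences from 5 of them carry the findings below. All are given 5′ to 3′ on the plus strand of dm6, from the RefSeq copy of that assembly. The first 3 show the strongest peak, over the promoter shared by CG14711 and Zaf1. They give its summit (chr3R:11623194-11623222, summit base in capitals), the promoter stretch up to the CG14711 TSS (chr3R:11623234-11623338, CGATA or its reverse complement in capitals) and the bases around that TSS (chr3R:11623328-11623349, the word CAACCCTG in capitals).
CG14711/Zaf1 summit: ttattgcgtgactcAagcttaaatattta
CG14711 promoter: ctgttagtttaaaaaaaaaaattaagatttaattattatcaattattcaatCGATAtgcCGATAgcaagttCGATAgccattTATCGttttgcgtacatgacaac
CG14711 start site: tacatgaCAACCCTGggaaaag
The next pair shows in capitals matches to a longer form of that word, GGCAACCCTG, and at CG14712 also CAGCCCTG, a match to the word itself with 1 substitution. They come from the CG14712 promoter (chr3R:11628538-11628638) and, on the minus strand and with 2 substitutions, at the distal of the peaks in the first intron of Jupiter (chr3R:11613270-11613370).
CG14712: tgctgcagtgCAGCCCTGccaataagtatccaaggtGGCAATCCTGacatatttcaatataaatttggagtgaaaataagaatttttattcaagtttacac
Jupiter intron distal: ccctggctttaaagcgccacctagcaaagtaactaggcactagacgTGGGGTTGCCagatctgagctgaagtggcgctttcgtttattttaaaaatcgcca
The last pair comes from the promoters shared by CG14710 with Jupiter (chr3R:11619967-11620067) and by CG18764 with CG6813 (chr3R:11626688-11626788), with TATAAA or its reverse complement in capitals.
CG14710/Jupiter: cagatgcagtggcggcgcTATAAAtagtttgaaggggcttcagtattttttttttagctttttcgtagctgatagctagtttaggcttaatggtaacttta
CG18764/CG6813: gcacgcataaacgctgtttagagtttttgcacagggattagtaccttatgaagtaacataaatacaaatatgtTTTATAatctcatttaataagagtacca

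Every member had a reproducible promoter peak. A promoter peak has its summit no more than 500 bp from a TSS, and reproducible peaks are the 5654 of the optimal list that the authors derived by the irreproducible discovery rate (IDR). All 7 members had one, while 30.7% of all protein-coding genes and 25.2% of genes of every kind did. The 7 genes share 4 promoter peaks, because 3 of the peaks each lie between a divergent pair, so the count is not 7 separate observations. The pooled list of 30000 peaks takes in every IDR peak, so all 7 necessarily had a promoter peak there, against 60.9% of protein-coding genes. Among the 5654 best peaks of each replicate list the count was also 7, against 29.4% of protein-coding genes in replicate 3 and 30.5% in replicate 4. The full replicate lists of 30000 peaks take in those best peaks, so the count of 7 was fixed there too. The shares of protein-coding genes were 59.8% in replicate 3 and 60.2% in replicate 4.

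**Figure D1:**
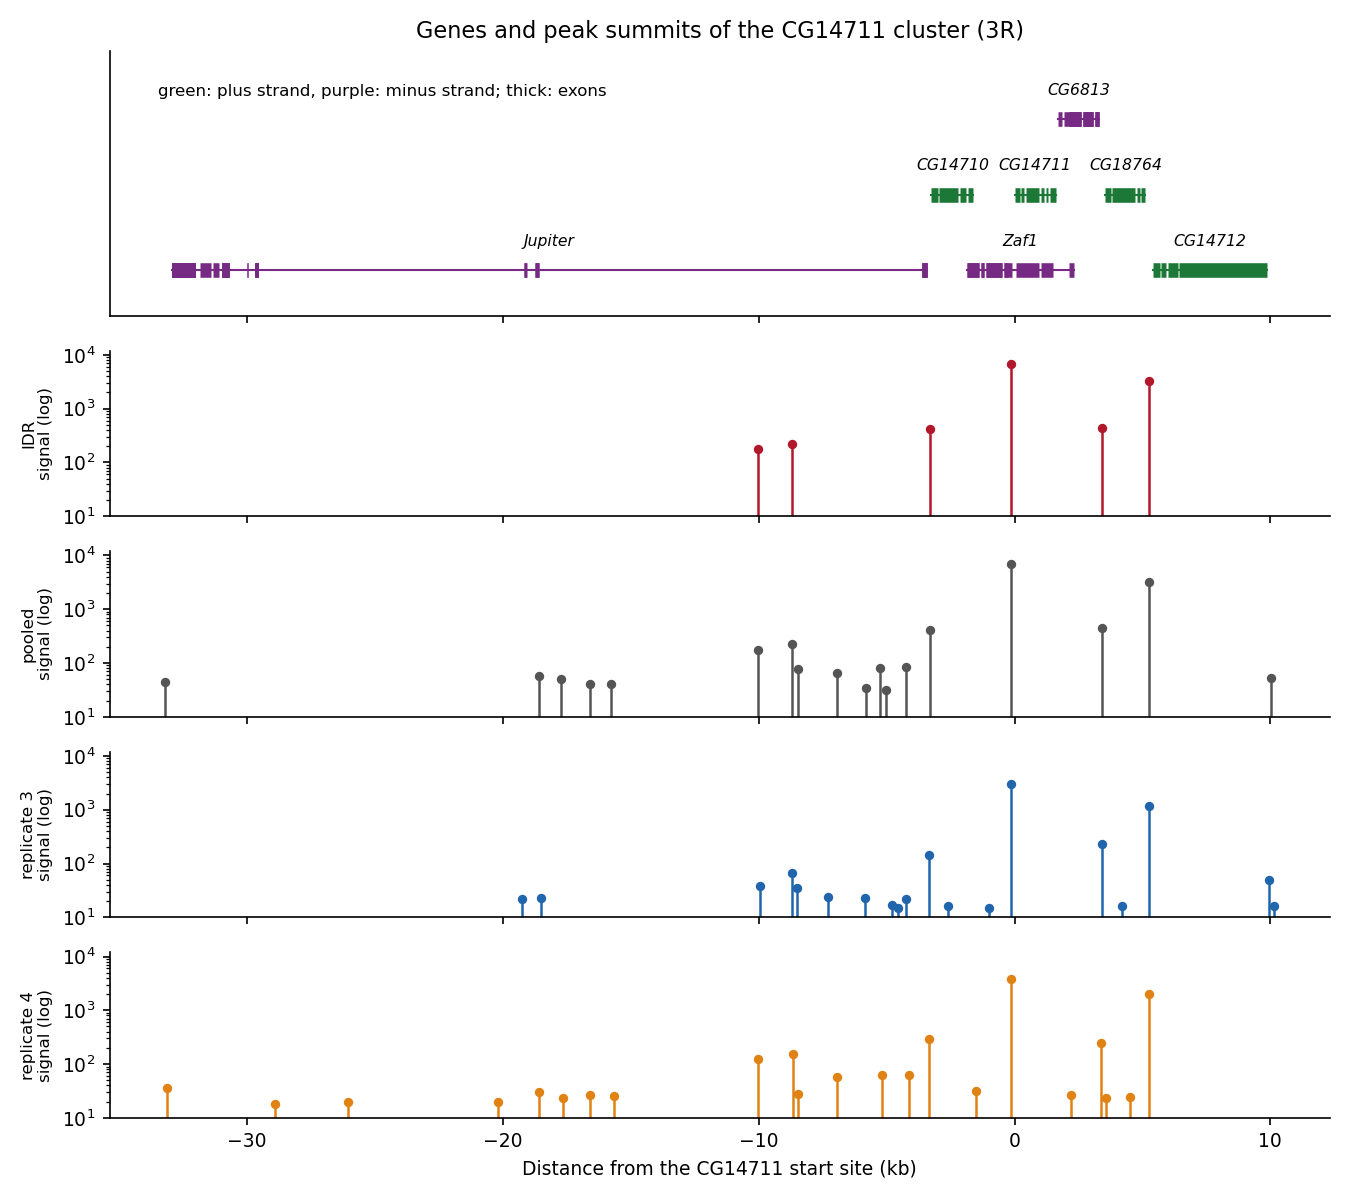
Gene models of the 7 members (top, thick bars are exons, green plus strand, purple minus strand). Below are the summits of peaks in the IDR, pooled, replicate 3 and replicate 4 lists. They are placed by distance from the CG14711 TSS in kb (x) and the authors' signal on a log scale (y). The y range is the same in every panel, but signal is not comparable between lists. The tallest peak in each list stands just upstream of CG14711 and the next tallest upstream of CG14712, while Jupiter holds many low summits.

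The peak over the shared promoter of CG14711 and Zaf1 was by far the strongest of the group. The signal is the authors' own value for each peak and ranks peaks only within a list, since its scale differs between lists. In the IDR and pooled lists the peak had a signal of 6809 and rank 2. Its signal was 2987 in replicate 3 and 3835 in replicate 4, with rank 2 in both. It ran from 11622875 to 11623590 (716 bp), and its summit stood at 11623208 in the IDR list and in replicate 4 and at 11623216 in replicate 3. That is 131 bp upstream of the CG14711 TSS and 111 bp upstream of the downstream TSS of Zaf1. The summit also falls in an exon of the longer Zaf1 transcript, within its 5′ untranslated region. Of the 3619 IDR promoter peaks none had a higher signal. The only stronger peak lay inside Tlk, the Tousled-like kinase gene, with a signal of 9217, which is 1.35 times as high. The next below, at the promoter of sti and tral, had 5656, so the CG14711/Zaf1 peak exceeded it 1.2-fold.

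CG14712 had the second strong peak. Its signal was 3215 at rank 46 in the IDR and pooled lists, 1179 at rank 57 in replicate 3 and 2033 at rank 48 in replicate 4. It covered 11628391 to 11628843 (453 bp), with the summit at 11628588, 171 bp upstream of the TSS. Its neighbours by signal were the promoter of Art3 and mRpS10 (3271), the second a mitochondrial ribosomal protein gene, and that of CG9922 (3209). The CG14711/Zaf1 signal was 2.12 times that of CG14712. These peaks together carried 88.8% of the summed IDR signal of the group, and the first alone 60.4%.

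The other promoter peaks, those of CG18764 with CG6813 and of CG14710 with Jupiter, were moderate. The peak between CG18764 and CG6813 (11626600 to 11626854, summit 11626738) had a signal of 443 at rank 1456 in the IDR list, 232 at rank 878 in replicate 3 and 251 at rank 1803 in replicate 4. Its summit was 151 bp upstream of CG18764 and 100 bp upstream of CG6813. The peak between CG14710 and Jupiter (11619886 to 11620177, summit 11620017) had 416 at rank 1558, 143 at rank 1673 and 295 at rank 1484 in the same lists. It was 73 bp upstream of CG14710 and 111 bp upstream of the leftward-running Jupiter start. Both lay above the median IDR signal of 257, by 1.73-fold and 1.62-fold, against 26.5-fold for CG14711/Zaf1 and 12.5-fold for CG14712. The strongest promoter peak of the group was therefore 16.4 times the weakest, and these 4 promoters held every IDR peak in or beside the 13117 bp from the start of CG14710 to the end of CG14712.

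**Figure D2:**
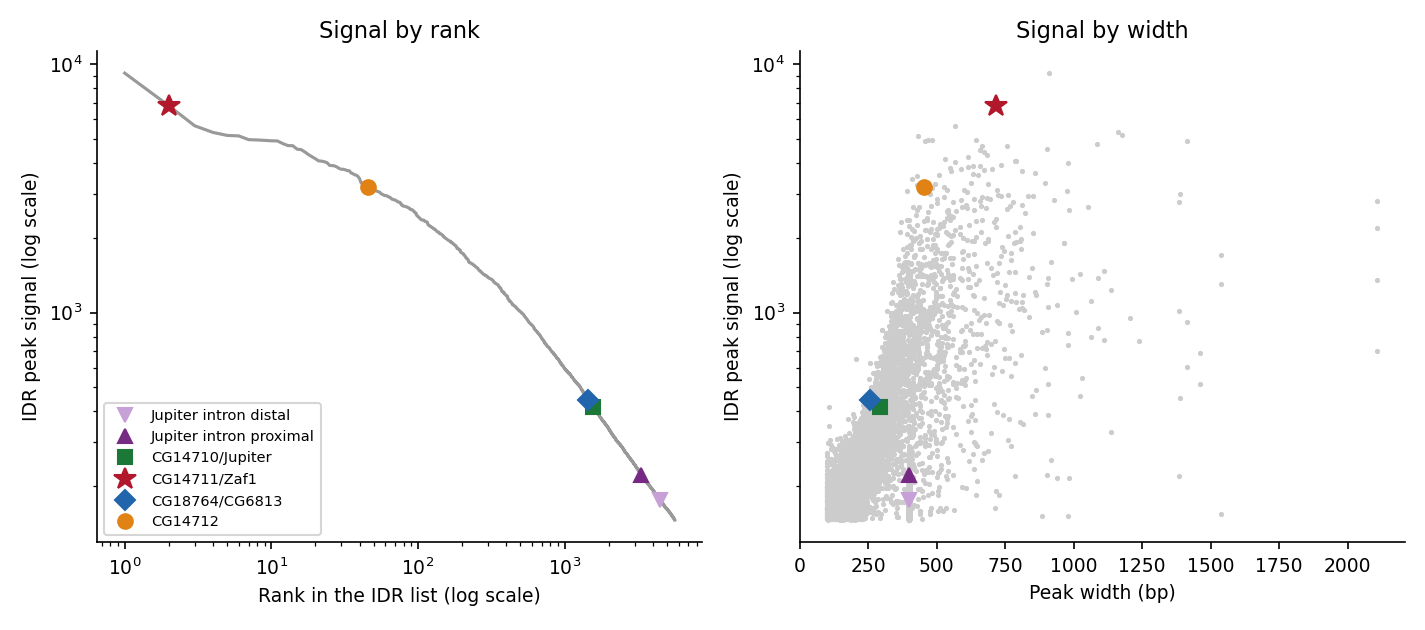
Signal of all 5654 IDR peaks (grey) by rank (left, both axes log) and by width in bp (right, log signal), with the 6 peaks of the group marked. The CG14711/Zaf1 star stands at rank 2 and the CG14712 circle at rank 46; the other 4 lie between ranks 1456 and 4495.

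Widths followed the signals only in part. At 716 bp the CG14711/Zaf1 peak was exceeded in width by 145 IDR peaks and by 32 of the 100 with the highest signal, whose median width was 636 bp. CG14712 was narrow for its signal, since 89 of those 100 were wider than its 453 bp. The peaks of CG14710/Jupiter (292 bp) and CG18764/CG6813 (255 bp) were below the list's median of 307 bp. Both intronic peaks of Jupiter were 400 bp wide, the commonest width of the pooled list and shared by 16.3% of the IDR list. It need not reflect their breadth, since the proximal peak was 103 bp wide in replicate 4.

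Jupiter and Zaf1 also had start sites that were bound weakly or not at all. At Zaf1 the strongly bound start site was the downstream one, at 11623097, which has the rank 2 peak. Of the 10 TSS positions of the group, 7 had an IDR peak within 500 bp, 8 a pooled peak, 8 a peak in replicate 3 and 9 one in replicate 4. The share of all 23581 TSS positions with a peak was not computed, so these counts stand without a background. Both positions of a divergent pair share a single IDR summit, so the counts are not separate observations either. The upstream TSS of Zaf1 at 11625644, which lies beyond the far end of CG14711, had a summit only in replicate 4, 92 bp away with a signal of 26.5 at rank 20785. At the internal Jupiter TSS at 11604754, the pooled list had a summit 21 bp away (56.5, rank 15702), replicate 3 one 77 bp away (23.3, rank 18924) and replicate 4 one 9 bp away (30.4, rank 18234). No list had a summit within 500 bp of the last Jupiter TSS, at 11592244, and the nearest pooled summit was 2103 bp from it. Jupiter and Zaf1, the members with several start sites, thus each had an IDR peak at 1 of them.

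Reproducible gene body peaks were found in Jupiter alone. A gene body peak has its summit in the gene span and more than 500 bp from any TSS of that gene. In the IDR list this was 1 of 7 members, against 8.4% of protein-coding genes. Jupiter spans 29521 bp and the other members between 1564 and 4448 bp, so the count rests on the 1 long gene. Jupiter was likewise the single member among the 5654 best peaks of replicate 3 (8.3%) and of replicate 4 (8.37%) and in the pooled list (28.5% of protein-coding genes), and 4 members had such a peak in replicate 3 (29.1%) and 4 in replicate 4 (30.9%). CG14711 and CG14712 had none in any of the 4 lists. The remaining cases were weak peaks of 1 replicate: CG14710 in replicate 3 (15.9), CG6813 in replicate 4 (26.5), Zaf1 in both at different places (15.2 in replicate 3, 31.7 in replicate 4) and CG18764 likewise (16.3 and 24.6). The CG6813 case is the same peak as the one at the upstream Zaf1 TSS.

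**Figure D3:**
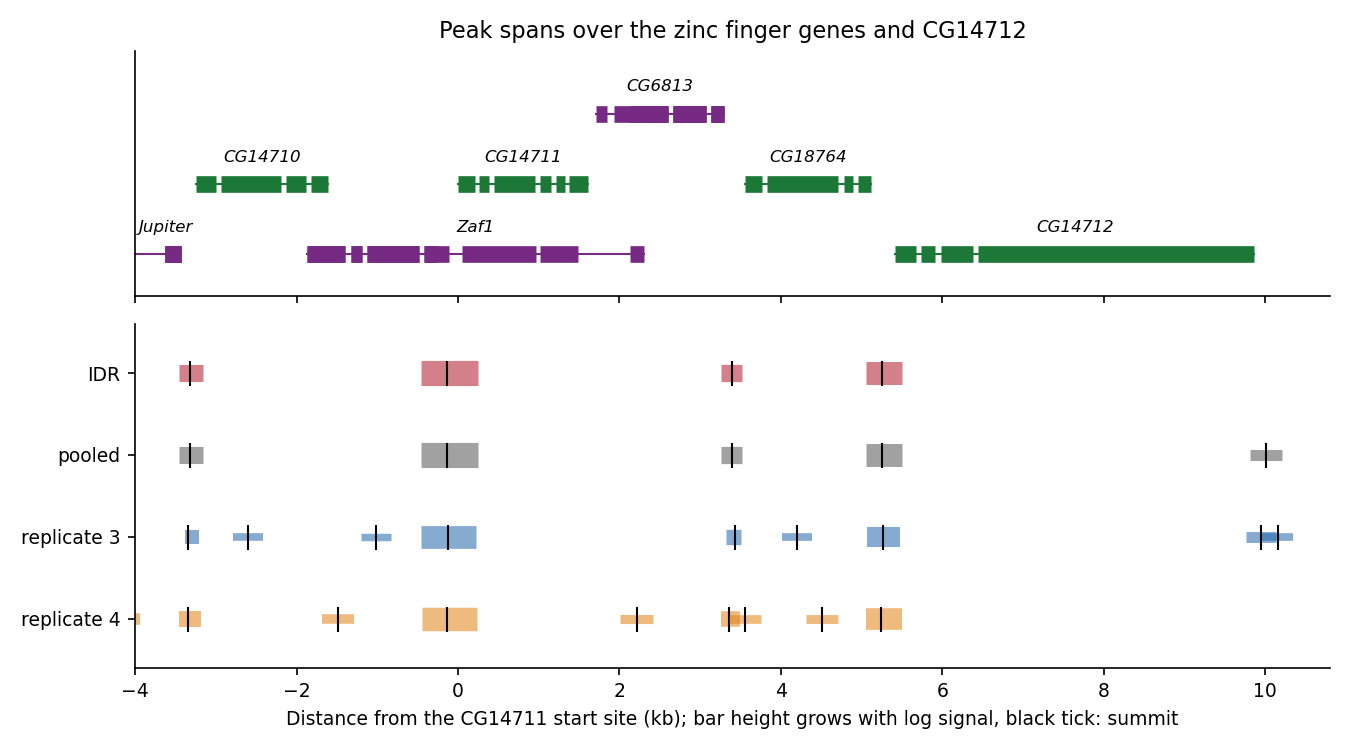
The zinc finger genes and CG14712 enlarged: gene models (top, green plus strand, purple minus strand) and, for each list, peak extents as bars whose height grows with the log of the signal, with a black tick at the summit, by distance from the CG14711 TSS in kb. The 4 promoter peaks recur in every list, while the thin bars over the zinc finger genes each appear in 1 replicate list or, beyond the right end of CG14712, in the pooled list and replicate 3.

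Jupiter, whose first intron holds most of its length, was the exception. In the pooled list it held 11 body peaks with signals between 31.6 and 222, in replicate 3 it held 9 (14.9 to 65.3) and in replicate 4 it held 12 (18.2 to 152). The IDR list kept 2 of them. Both lie in the first intron, counted from the TSS at 11619906. The one nearer that TSS (the proximal peak, summit 11614653) had a signal of 222 at rank 3339 in the IDR list, 65.3 at rank 5466 in replicate 3 and 152 at rank 3282 in replicate 4. The distal peak (summit 11613320) had 176 at rank 4495, 38.3 at rank 10938 and 122 at rank 4257. In replicate 3 the distal peak was not among the best 5654, and its −log10 q was 3.64 where the list's maximum is 4.3. Both were below the median signal of the IDR list, at 0.867 and 0.686 times that value.

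The replicates gave the 6 peaks different relative weight. Over 5224 IDR peaks found in both replicate lists with summits within 100 bp, the replicate 4 signal was a median of 1.84 times that of replicate 3 (quartiles 1.36 and 2.4). The ratio was 1.28 for CG14711/Zaf1, 1.72 for CG14712 and 1.08 for CG18764/CG6813. It was 2.06 for CG14710/Jupiter, 2.33 for the proximal Jupiter intron peak and 3.19 for the distal one. The CG14711/Zaf1 and CG18764/CG6813 ratios were thus under the lower quartile, with 21.5% and 13.3% of matched peaks lower still. The distal intron peak was above the upper quartile, with 89.7% lower. For the 100 peaks of highest signal the ratio ran between 1.13 and 2.69 with a median of 1.62, a range that holds the ratios of both CG14711/Zaf1 and CG14712. Summits moved by 8 bp at CG14711/Zaf1, 19 bp at CG14712 and 4 bp at CG14710/Jupiter, but by 76 bp at CG18764/CG6813, 73 bp at the distal and 38 bp at the proximal Jupiter intron peak, against a median of 27 bp. With 1 list per replicate, these ratios have no error of their own.

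**Figure D4:**
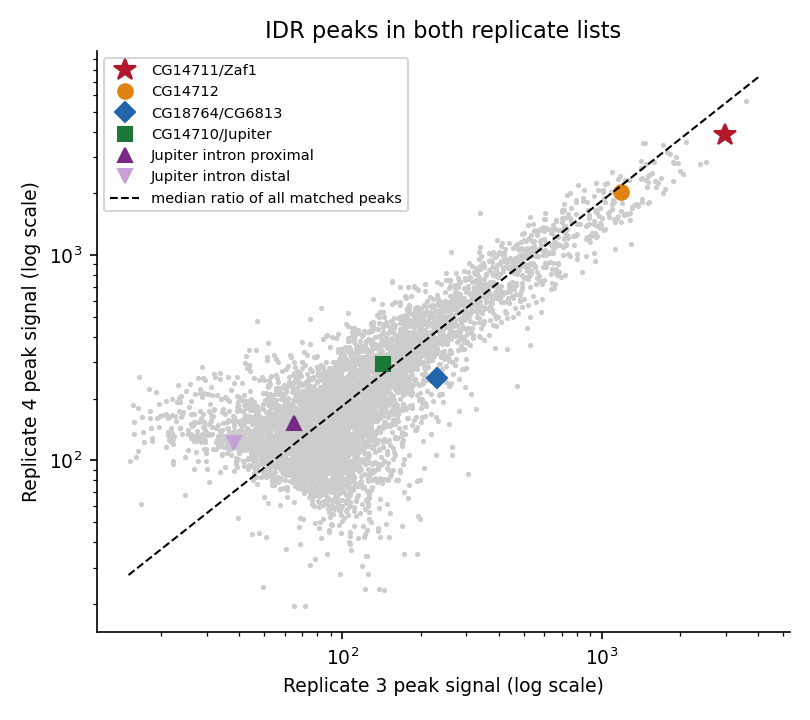
Signal in replicate 4 (y) against replicate 3 (x), both log scales, for IDR peaks found in both lists (grey), with the 6 peaks of the group marked and a dashed line at the median ratio of 1.84. CG14711/Zaf1 (1.28) and CG18764/CG6813 (1.08) lie below the line, and the Jupiter intron peaks (2.33 and 3.19) above it.

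The group stood out on its arm by signal more than by number of peaks. Its span held 6 IDR peaks, 140 per Mb, where arm 3R as a whole held 40.9 per Mb. Of the 748 stretches of the same length that tile 3R, 39 held more IDR peaks and 17 as many, with a median of 1 and a maximum of 12. In the pooled list the span held 16 peaks, and 155 of the 748 stretches held more. The summed IDR signal of the span was 11283 against a median of 177, and 0 of the 748 stretches had a higher sum. The span was chosen with earlier results known and holds the strongest IDR peak of 3R, which alone made 60.4% of the sum. Its high place by summed signal therefore followed largely from that choice. When 50000 bp were added to each side, the density was 126 per Mb, with 2 of 223 stretches holding more peaks, so the wider neighbourhood was rich in peaks too.

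The next genes outward had weaker promoter peaks or none in the IDR list. To the left, CG6791 and wkd, which encodes a Rab GTPase-activating protein, had no IDR promoter peak, and their strongest pooled promoter signals were 43.4 and 120. To the right, Csk, a kinase that restrains Src, had a promoter peak of 245 at rank 2979. Of these neighbours, 2 had an IDR peak in the gene body, wkd at 479 and Csk at 396, values close to those of the moderate promoter peaks inside the group.

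Other rows of ZAD zinc finger genes had fewer promoter peaks. Adjacent protein-coding genes that all held both protein patterns formed 4 runs of 4 or 5 genes in the genome, every one on 3R, and the 5 genes from CG14710 to CG18764 are one of the 2 longest. All 5 of them had an IDR promoter peak, at 3 separate summits. In the other run of 5 (nom, ouib, CG8159, ranshi and M1BP) only M1BP did, with 661 at rank 881. In the run CG17806, Nnk, CG17801 and Odj none did (0 of 4), and in CG4424, CG4854, trem and idc a single peak of 299 served the divergent pair trem and idc. These runs were picked after the values were seen and are given as a description. Of all 99 other genes with both patterns, 47 had an IDR promoter peak (47.5%). From a list of known ZAD symbols, 58 genes outside the group were matched, 44 of them also among those with both patterns, and 26 of the 58 had an IDR promoter peak (44.8%), with a median signal of 302. The strongest of these were at CG4820 (2077), CG1792 (1947), CG3032 (1217), Meics (965) and M1BP (661), all below both CG14711/Zaf1 and CG14712.

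**Figure D5:**
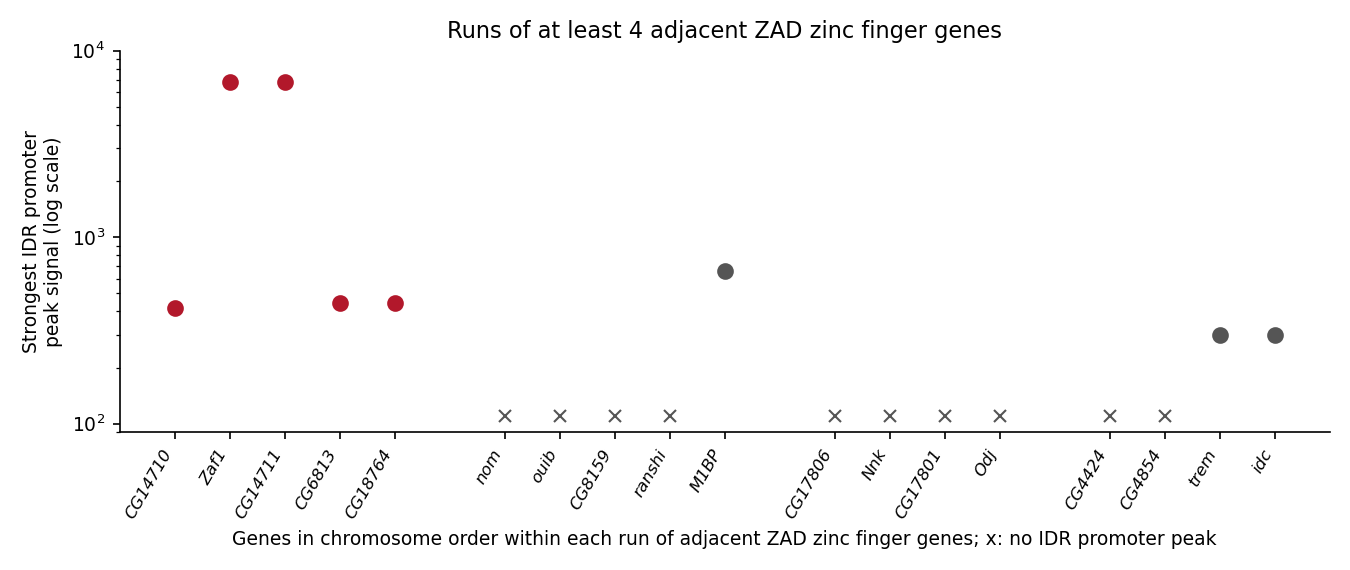
Signal of the strongest IDR promoter peak (log scale) for each gene in the 4 runs of at least 4 adjacent ZAD zinc finger genes; red points are the genes of the CG14711 group, grey those of the other runs, and a cross marks a gene with no IDR promoter peak. Only the red run has a point for every gene, with CG14711 and Zaf1 at their shared value of 6809.

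The sequence words under the peaks differed between members. Words were searched on both strands within 50 bp of the summit in the 6 peaks and in the other 5648 IDR peaks. CAACCCTG, the word most enriched at summits of this protein in an earlier search of these lists, was in 2.74% of the other IDR peaks, in 0.168% of windows centred 300 bp away and in none of the 6. The closest exact copy in the group spans the TSS of CG14711 (11623335 to 11623342), 127 bp from the summit, as the start-site sequence above shows. An exact copy within 150 bp of the summit occurred in 3.9% of the other IDR peaks, and in 1.26% of protein-coding promoters (250 bp before to 50 bp after the start).

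CG14712 and the distal Jupiter intron peak came closest to a longer form of the word at the summit itself. The 10-base form GGCAACCCTG joins CAACCCTG to the reverse complement of GGGTTGCC, the word under the distal Jupiter summit that was most enriched at other summits (2.35% of other IDR peaks against 0.283% of windows 300 bp away), so its match there follows from how it was built. It was exact in 1.31% of the other IDR peaks and matched with at most 1 substitution in 5.56%, against 0.505% of the windows 300 bp away and 16% of the 100 strongest peaks. At CG14712, GGCAATCCTG lay 5 bases from the summit with the substitution C6T, counted from 1 at the 5′ end of the word. The same window held CAGCCCTG, with A3G relative to the 8-base word, itself in 1.31% of the other IDR peaks and 0.177% of the windows 300 bp away. At the distal Jupiter summit, GGCAACCCCA (T9C and G10A) lay across the summit on the minus strand. Matches with at most 2 substitutions were in 12.4% of the other IDR peaks and 4.58% of the windows 300 bp away. At CG14711/Zaf1, the strongest peak, the best 10-base match within 50 bp of the summit had 3 substitutions, as had that at the proximal Jupiter intron peak. CG14710/Jupiter and CG18764/CG6813 had 4. The mismatch search was added after the exact search had been seen.

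Words of known promoter factors gave a mixed picture. Within 50 bp of the 6 summits there was no TATCGATA (bound by DREF, 2.69% of other IDR peaks), no GGTCACACT (bound by M1BP, 1.31%), no GAGAGAG (bound by GAGA factor, 1.65%), no CAGCTG (4.53%) and no CGATA (bound by BEAF-32, 19.2%, and contained in TATCGATA). TATAAA was in 3 of the 6, CG14710/Jupiter, CG18764/CG6813 and CG14712, against 21.5% of other IDR peaks. Within 150 bp of the summit it was in 4 of the 6, against 46% of other IDR peaks. Promoter windows, close to that longer window in length, held it in 45.9%. The general E-box CANNTG, which takes in CAGCTG, was in 2 against 34.6%. Away from the summit, the CG14711 promoter held 4 copies of CGATA within 36 bp, between 54 and 19 bp upstream of the TSS. At least 4 copies were found in 860 of the 13945 protein-coding promoters (6.17%), where each gene was taken at its outermost TSS. The same 4 copies fall in the promoter window of the downstream TSS of Zaf1, which faces CG14711. CG6813 and CG18764 had the same 2 copies in their overlapping promoter windows. The internal Jupiter TSS at 11604754 had 2, and the remaining TSSs of the members had 0.

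Summits were poor in G and C relative to their surroundings at most of these peaks. Over 101 bases, GC content was 25.7% at CG14711/Zaf1, 30.7% at CG18764/CG6813 and 35.6% at CG14712. It was 37.6% at CG14710/Jupiter, 38.6% and 48.5% at the proximal and distal Jupiter intron peaks, and 34.5% ± 10.5 (mean ± SD over all 5654 IDR summits). At CG14711/Zaf1 the windows 300 bp to either side had 46.5% and 59.4%, so its summit was AT-rich between GC-richer flanks. Over all IDR peaks the mean 300 bp away was 43%, so a lower GC content at the summit was general in the list. The distal Jupiter intron peak went the other way, with 25.7% and 43.6% in its windows to the left and right, both below its summit. None of the 466 words of 36 bases in the 501 bp around any of the 6 summits was found a second time on the 6 arms (0 of 466 each).

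The flies carry an inserted CG14711 construct, and the labels used here do not give its extent or its place. Extra copies of this sequence and more binding per copy cannot be told apart in peak lists. The strongest peak covers the sequence upstream of CG14711, the CG14711 body beyond 500 bp of its TSS had no peak in any list, and CG18764 and CG6813, whose shared summit lies 3.4 kb from its TSS, had a peak at rank 1456 of the IDR list. CG14712, whose summit lies farther away, at 5.25 kb, had one at rank 46. The part of copy number in any of these values was not tested.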

How the data were processed

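Anti-GFP ChIP-seq peaks of CG14711-eGFP were analysed from 4 lists in dm6 coordinates, per the labels: replicate 3, replicate 4, both pooled, and the IDR list. The authors called peaks against a control alignment, per the deposited text records; the control was not analysed here, and for the aligner, the caller and the IDR cutoff nothing is stated in the sources used here. The deposited values are signal and −log10 q per peak, with a summit offset. They hold no read counts, so depth is unknown. The authors' IDR peaks equal the 5654 best of the pooled list, and the −log10 q values stop at a maximum (4.15 there), so peaks were ranked by signal.

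Genes came from Ensembl release 115 (BDGP6.54, dm6 coordinates), with Python 3.11.15, pandas 2.3.3, numpy 2.4.6, Biopython 1.88 (global alignment, BLOSUM62) and matplotlib 3.10.9. Summit assignment was tested on simulated data. The members, gene lists and words were chosen with earlier results of these data known. Named genes are the members, the next 2 protein-coding genes on each side, genes sharing a member's peak, those adjacent in rank and the 5 strongest other ZAD genes. One item that this rule names is not reported here. Every comparison is descriptive. Alternatives changed the TSS distance, annotation, list, gene assignment, flank and motif window.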

Additional observations from a re-analysis of the deposited data

How the results depend on the processing

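The count of 7 members with a promoter peak held at 250 bp (26.4% of protein-coding genes) and with RefSeq genes (30.6%). It also held for the stronger part of the list (17.8%) and without either replicate. At 1000 bp (34.2%) and in the pooled list it could not fall, since both take in every case of the main setting. When each peak was given only to its nearest TSS, 4 members kept one (CG14710, Zaf1, CG6813 and CG14712; 22.9% of protein-coding genes). The rank of CG18764/CG6813 ran between 878 and 1803 without 1 replicate, and 1 member (Jupiter) had a gene body peak under every alternative run, although the full replicate lists gave 4 each. Wider motif windows changed some counts among the 6 peaks, given here with the share of other IDR peaks in brackets. Within 150 bp, CAACCCTG was in 1 (3.9%), CAGCTG in 1 (17.4%), CGATA in 4 (45.3%) and CANNTG in 4 (76.6%). Within 100 bp, CGATA was in 2 (34.4%). No paired analysis was possible because there is only 1 group. Without read counts or the control, precision and copy number are unknown, and the peak lists do not show levels of binding between replicates.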
